A study of Homo sapiens with 6 samples.

Results

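The genes described here are 31 genes of the endoplasmic reticulum (ER): chaperones, disulfide isomerases, the machinery of ER-associated degradation, the protein channel of the membrane, and the sensors and transcription factors of the unfolded protein response. They were listed by name, by a rule that holds no measured value but was set with earlier results of these data known, and are 31 of the 57500 genes counted in each library. RNA was sequenced from HepG2 cells, an established human hepatocarcinoma line labelled WT. They had been kept for 24 h in vehicle or with 10 mM glycine added, with 3 libraries per group. The study describes its standard medium as already holding glycine at a far lower concentration, so vehicle does not mean free of glycine. HepG2 is a single transformed line, so the comparison covers these cells only. It addresses whether added glycine changes the transcripts with which a secretory liver cell folds, checks and exports protein. Of the 31 genes, 30 were expressed enough to be tested, against 15492 genes in all.

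The ER folds proteins that are destined for secretion or for membranes. Its HSP70 chaperone, HSPA5 (BiP), binds unfolded chains and also holds the sensors IRE1 (gene ERN1), PERK and ATF6 inactive. When unfolded protein accumulates, IRE1 splices the XBP1 transcript, ATF6 is cut in the Golgi to release a transcription factor, and PERK slows translation. The released factors raise chaperones and degradation genes, many through the ER stress response element, a promoter motif made of CCAAT, a spacer of 9 bases and CCACG. Hepatocytes run this system under a constant load, because they secrete most plasma proteins. Splicing of XBP1 cannot be read from counts per gene, so the activity of IRE1 was not measured here.

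The promoters were searched first, because they show which of these genes carry the motif through which the response acts. RefSeq promoters (GRCh38.p14, 250 bases before to 50 after the start) were found for 28 of the 31 genes. The full element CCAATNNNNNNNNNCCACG, on either strand, was in 8 of these 28 genes (28.6%), against 25 of 27305 genes in the whole table (0.0916%). The shorter element II, ATTGGNCCACG, was in 3 of 28 (10.7%) against 19 genes in all (0.0696%), and TGACGTG, the core of the unfolded protein response element, in 2 of 28 (7.14%) against 654 (2.40%). None of the 31 genes was found with both the full element and element II. A match is a description of the letters and not a measured binding site. The genes were listed for their part in this response, so these shares describe the list and test nothing. The matches of the full element that lie wholly before the RefSeq start are printed with 5 bases on each side. They read 5′ to 3′ on the strand of the gene, with the defining letters in capitals. Those printed for HSP90B1, CANX, PDIA6 and CRELD2 lie inside the outer ends of the gene as counted here, which differ from the RefSeq start. An element that reads CGTGG first and ATTGG second lies on the other strand.
HSPA5, chr9:125241386-125241414, minus strand: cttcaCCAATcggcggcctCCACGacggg
HSP90B1, chr12:103930211-103930239, plus strand: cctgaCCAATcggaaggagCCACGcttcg
HSP90B1, chr12:103930316-103930344, plus strand: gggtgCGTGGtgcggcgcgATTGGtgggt
CALR, chr19:12938379-12938407, plus strand: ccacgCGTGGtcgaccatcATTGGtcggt
CANX, chr5:179698773-179698801, plus strand: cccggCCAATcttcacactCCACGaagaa
PDIA6, chr2:10812848-10812876, minus strand: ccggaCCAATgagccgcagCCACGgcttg
XBP1, chr22:28800598-28800626, minus strand: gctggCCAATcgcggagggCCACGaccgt
CRELD2, chr22:49918549-49918577, plus strand: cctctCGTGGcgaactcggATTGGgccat
ERO1B, chr1:236282178-236282206, minus strand: gcccgCGTGGtcccgcctcATTGGccgcc

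Element II was found in the degradation gene HERPUD1, in the HSPA5 partner HYOU1, where it occurs at 2 places, and in SDF2L1. These matches are shown in the same way.
HERPUD1, chr16:56932020-56932040, plus strand: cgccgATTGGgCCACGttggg
HYOU1, chr11:119057375-119057395, minus strand: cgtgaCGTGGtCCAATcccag
HYOU1, chr11:119057269-119057289, minus strand: tgggaCGTGGtCCAATgagta
SDF2L1, chr22:21642109-21642129, plus strand: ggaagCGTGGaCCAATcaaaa

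Before any comparison, the levels themselves were ordered. A level is given in CPM, the count relative to a library size of 1e6 after TMM scaling (edgeR's trimmed-mean scaling), and divided by the exon length in kilobases (kb) where genes are set against each other. Together the 31 genes made up 0.860% to 1.01% of each library. The lectin chaperone CALR, which holds glycoproteins in the ER lumen, was the most abundant per length, at 660 ± 66.9 CPM per kb with vehicle (SD, n = 3). HSPA5 followed at 386 ± 29.9 and the ER form of HSP90, HSP90B1, at 183 ± 20.0 CPM per kb. The next 6 genes, XBP1, CANX, PDIA4, SEC61A1, PDIA3 and PDIA6, lay between 121 and 164 CPM per kb, and several of these neighbours differed by less than their SD. The sensors were far lower, with ATF6 at 6.28 ± 0.232 and ERN1 at 0.962 ± 0.158 CPM per kb. Of the paired oxidases that recharge the disulfide isomerases, ERO1A was at 9.96 ± 1.23 and ERO1B at 0.431 ± 0.0688 CPM per kb. DERL3, a derlin of professional secretory cells, had 3 counts over all 6 libraries, which is within the limit of 3 counts in a library (0.0513 to 0.0940 CPM). A change of DERL3 was not detectable at this depth.

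**Figure D1:**
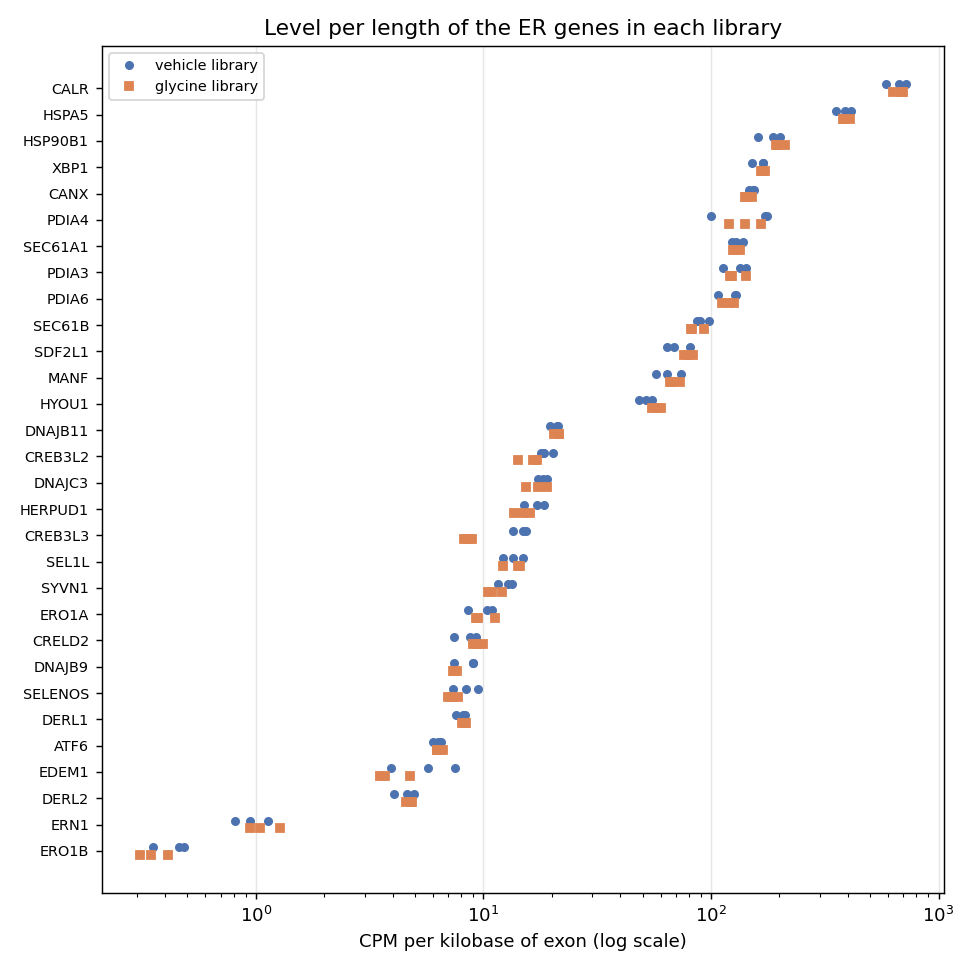
Level of 30 ER genes in each library, in CPM per kilobase of exon on a log axis, ordered by the vehicle mean, with vehicle libraries as circles and glycine libraries as squares. CALR, at 660 CPM per kb with vehicle, stands above the rest, and the glycine squares of CREB3L3 lie clear of its vehicle circles.

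Few of these genes passed the test. Of the 30 tested genes, 0 were higher and 1 was lower with glycine (edgeR quasi-likelihood test, adjusted p under 0.05), the ER-bound transcription factor CREB3L3. That is 3.33% of the group. Over all 15492 tested genes 13.3% were called, 6.71% higher and 6.54% lower. The median log2 change was -0.0028 over the 30 genes and 0.0035 over all tested genes, and the median absolute log2 change was 0.08 against 0.14. The groups did not overlap for 2 of the 30 genes (6.67%), against 31.6% of all tested genes. The unadjusted p was under 0.05 for 8 genes (26.7%), against 27.3% of all tested genes. These 8 were CREB3L3, CREB3L2, EDEM1, SYVN1, SELENOS, HERPUD1, DNAJB9 and HYOU1, and all but HYOU1 had a log2 change below 0. Of the whole group 15 of 30 were below 0, against 49.2% of all tested genes. For 27 of the 29 genes that were not called, the 95% interval of the log2 change lay within 0.5 of 0, so a change of 1.41-fold or more in either direction was outside it. The other 2, ERO1B and EDEM1, had wider intervals. RNA from a whole culture cannot separate fewer expressing cells from less RNA per cell.

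**Figure D2:**
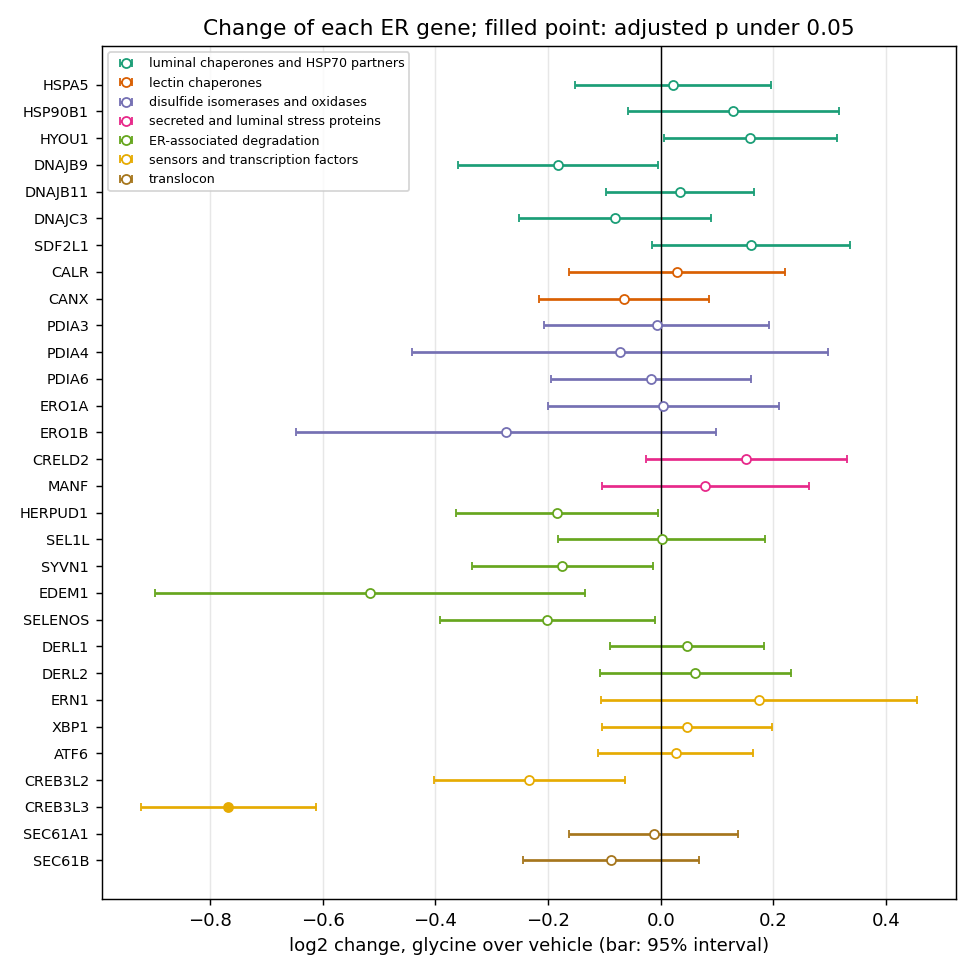
Log2 change with glycine of the 30 tested ER genes (horizontal axis) with its 95% interval, coloured by role; a filled point marks an adjusted p under 0.05. The filled point is CREB3L3 at -0.77, and the intervals of most chaperones cross 0.

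CREB3L3 (ENSG00000060566, chromosome 19, 4153601 to 4173054 in GRCh38) encodes CREBH, a membrane-bound relative of ATF6 that is enriched in liver and intestine and acts on lipid, glucose and acute phase genes. Its level was 36.2, 41.2 and 40 CPM in the vehicle libraries and 23.0, 23.9 and 22.1 CPM in the glycine libraries. The highest glycine library was well below the lowest vehicle library. The means were 39.1 ± 2.60 and 23.0 ± 0.887 CPM (SD, n = 3), and the log2 change was -0.77 with a standard error of 0.0723 (edgeR adjusted p = 1.43e-05, 95% interval -0.92 to -0.61). No other annotated gene shares its exons. It was called in each of the 15 alternative fits, with a log2 change between -0.83 and -0.73. Its promoter carried neither ER stress element. The stretch before the first annotated base of the gene (chr19:4153381-4153600, plus strand) is shown because CREB3L3 was the gene called, with its CCAAT in capitals.
CREB3L3: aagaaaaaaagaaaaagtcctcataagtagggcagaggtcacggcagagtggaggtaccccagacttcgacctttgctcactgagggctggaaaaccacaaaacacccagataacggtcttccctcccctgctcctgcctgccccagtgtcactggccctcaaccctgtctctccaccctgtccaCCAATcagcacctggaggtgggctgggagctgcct

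The other factors of this family did not pass the threshold. CREB3L2, a related ER-bound factor that raises secretory capacity in cells such as chondrocytes, read 177, 157 and 162 CPM with vehicle and 146, 125 and 151 CPM with glycine. These groups did not overlap either, but the gap was small, and the log2 change was -0.23 ± 0.0786 (standard error, as for each log2 change given with ±; edgeR adjusted p = 0.0690). The DESeq2 test called it lower (adjusted p = 0.0373). XBP1, the transcript that IRE1 splices, was at 457, 513 and 515 CPM in vehicle and 524, 504 and 507 CPM in glycine libraries, with overlapping groups and a log2 change of 0.05 (edgeR adjusted p = 0.717). ATF6 stayed within 47.6 to 52.5 CPM in all 6 libraries, with a log2 change of 0.03 and an interval from -0.11 to 0.16. ERN1, which encodes IRE1, was low and variable, from 8.83 to 12.2 CPM with vehicle and from 10.2 to 13.8 CPM with glycine (log2 change 0.17, edgeR adjusted p = 0.429).

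None of the 7 luminal chaperones and partners was called. With 13.3% of all tested genes called, nothing is read from the count in so small a group, here or in the other groups by role. HSPA5 (ENSG00000044574) read 1523, 1386 and 1618 CPM with vehicle and 1499, 1492 and 1603 CPM with glycine. All 3 glycine values fell inside the vehicle range, and the log2 change was 0.02 with an interval from -0.15 to 0.20 (edgeR adjusted p = 0.901). HSP90B1 was at 939, 755 and 879 CPM in vehicle and 917, 902 and 994 CPM in glycine libraries, a log2 change of 0.13 (edgeR adjusted p = 0.374). HYOU1, which exchanges the nucleotide of HSPA5, was at 423, 371 and 397 against 445, 421 and 464 CPM. The lowest glycine library of HYOU1 lay just under the highest vehicle library, and its log2 change was 0.16 ± 0.0714 (edgeR adjusted p = 0.168). SDF2L1, a partner of the cochaperone DNAJB11, had a log2 change of 0.16 (edgeR adjusted p = 0.229), and it passed the threshold only in the fit without vehicle replicate 3 (0.26, adjusted p = 0.0294). The J-domain cochaperones DNAJB11 and DNAJC3 had log2 changes of 0.03 and -0.08. CRELD2 and MANF, small secreted proteins of the stress response, had log2 changes of 0.15 and 0.08.

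Of the 2 lectin chaperones and the 5 disulfide isomerases and oxidases, 0 were called. CALR read 1820, 1597 and 1957 CPM in vehicle and 1713, 1886 and 1882 CPM in glycine libraries (log2 change 0.03). CANX, its membrane-bound relative, ranged from 915 to 964 CPM with vehicle and from 876 to 945 CPM with glycine (log2 change -0.07). PDIA3, which works with both lectins, and PDIA6 had log2 changes of -0.0073 and -0.018. The isomerase PDIA4 varied widely, at 577, 328 and 565 CPM in vehicle and 393, 460 and 545 CPM in glycine libraries. Its lowest vehicle library lay below every glycine library, and its interval ran from -0.44 to 0.30. ERO1A had a log2 change of 0.0048 and ERO1B of -0.27 (edgeR adjusted p = 0.984 and 0.340). Exons of neighbouring genes overlap 25.2% of the exon length of PDIA6, 23.2% of DNAJB11 and 18.9% of PDIA3, whose counts are therefore less certain.

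Among the genes of ER-associated degradation, which return misfolded proteins to the cytosol for destruction, 4 of the 7 tested had a log2 change below 0 and an unadjusted p under 0.05, where 27.3% of all tested genes had such a p in either direction, and 0 were called. EDEM1 (ENSG00000134109), a lectin that delivers misfolded glycoproteins for disposal, was at 50.5, 26.5 and 38.6 CPM in vehicle and 23.7, 24.9 and 32.2 CPM in glycine libraries. Vehicle replicate 2 lay among the glycine libraries, while the other vehicle libraries were above all of them. The log2 change was -0.52 ± 0.177 (edgeR adjusted p = 0.0737). HERPUD1, a scaffold of the ubiquitin ligase complex, was at 88.3, 77.6 and 95.4 against 70.2, 77.2 and 82.4 CPM (log2 change -0.18, edgeR adjusted p = 0.170). SELENOS, a selenoprotein that recruits the extracting ATPase, was at 31.5, 27.8 and 35.8 against 26.3, 28.96 and 27.4 CPM (log2 change -0.20, edgeR adjusted p = 0.159). In each of these genes it was again vehicle replicate 2 that fell into the glycine range. The ligase SYVN1 (HRD1) had a log2 change of -0.17 (edgeR adjusted p = 0.147), while its cofactor SEL1L was at 0.0017 and the derlins DERL1 and DERL2 were at 0.05 and 0.06. The cochaperone DNAJB9, which like EDEM1 is a known target of XBP1, was at 25.5, 21.1 and 25.4 CPM in vehicle and 20.7, 21.6 and 21.0 CPM in glycine libraries (log2 change -0.18, edgeR adjusted p = 0.172).

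**Figure D3:**
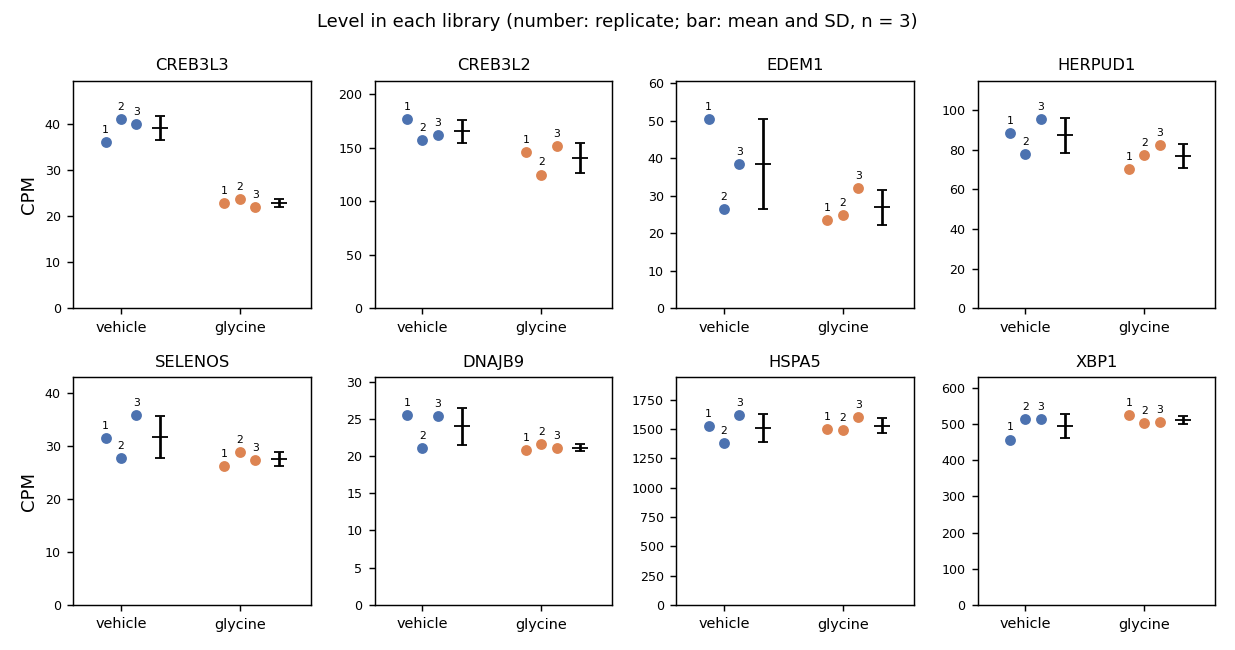
CPM in each library of 8 ER genes, with axes from 0; the number beside a point is the replicate and the bar beside the points is the mean and SD (n = 3). CREB3L3 separates fully, while vehicle replicate 2 of EDEM1, HERPUD1, SELENOS and DNAJB9 sits at the level of the glycine libraries.

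The number of these genes called changed most with a single vehicle library. Vehicle replicate 2 was the lowest of the 3 vehicle libraries for 22 of the 30 genes (73.3%), against 33.6% of all tested genes. Glycine replicate 1 was the lowest of its group for 16 of the 30 (53.3%, against 31.4%), and 15 of the 30 had both as the lowest, against 15.4% of all tested genes. Without vehicle replicate 2, 5 of the 30 genes (16.7%) were lower and 0 higher. Of all genes tested in that fit, 12.2% were called and 6.38% were called lower. Leaving out the lowest vehicle library of a gene raises its vehicle mean. A shift towards lower was thus built into this fit for most of the 30 genes, more than for all tested genes. The 5 were CREB3L3, EDEM1 (log2 change -0.72, edgeR adjusted p = 0.00358), DNAJB9 (-0.27, adjusted p = 0.0374), SELENOS (-0.29, adjusted p = 0.0398) and HERPUD1 (-0.26, adjusted p = 0.0483). SYVN1 stayed outside (-0.23, adjusted p = 0.0682). With vehicle replicate 2 and glycine replicate 1 both left out, a fit chosen after these values were seen, CREB3L3 and EDEM1 (-0.64, adjusted p = 0.0301) were called lower. The median coefficient of variation of the 30 genes was 10.0% among vehicle and 5.36% among glycine libraries, against 8.18% and 6.83% over all tested genes.

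**Figure D4:**
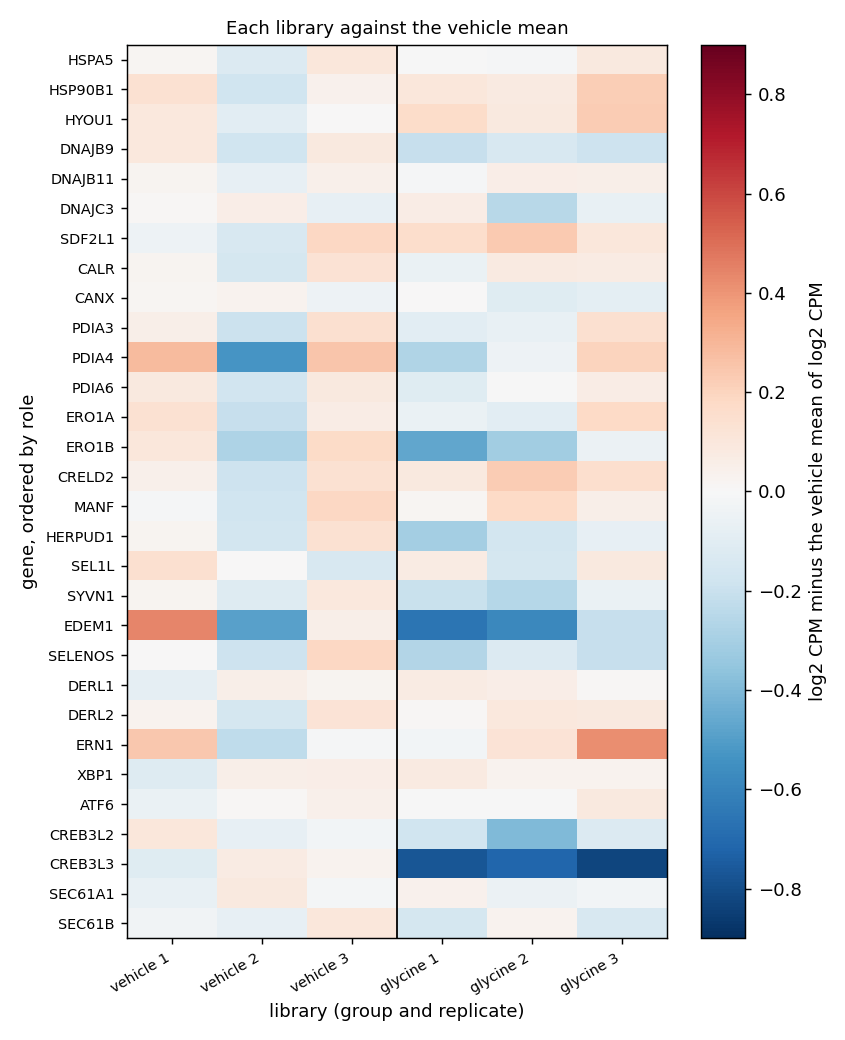
Level of the 30 tested ER genes (rows, ordered by role) in each library (columns), as log2 CPM minus the vehicle mean of log2 CPM; blue is lower and red is higher. The column of vehicle replicate 2 is blue for most chaperones, isomerases and degradation genes, and the row of CREB3L3 is dark blue in all 3 glycine libraries.

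**Figure D5:**
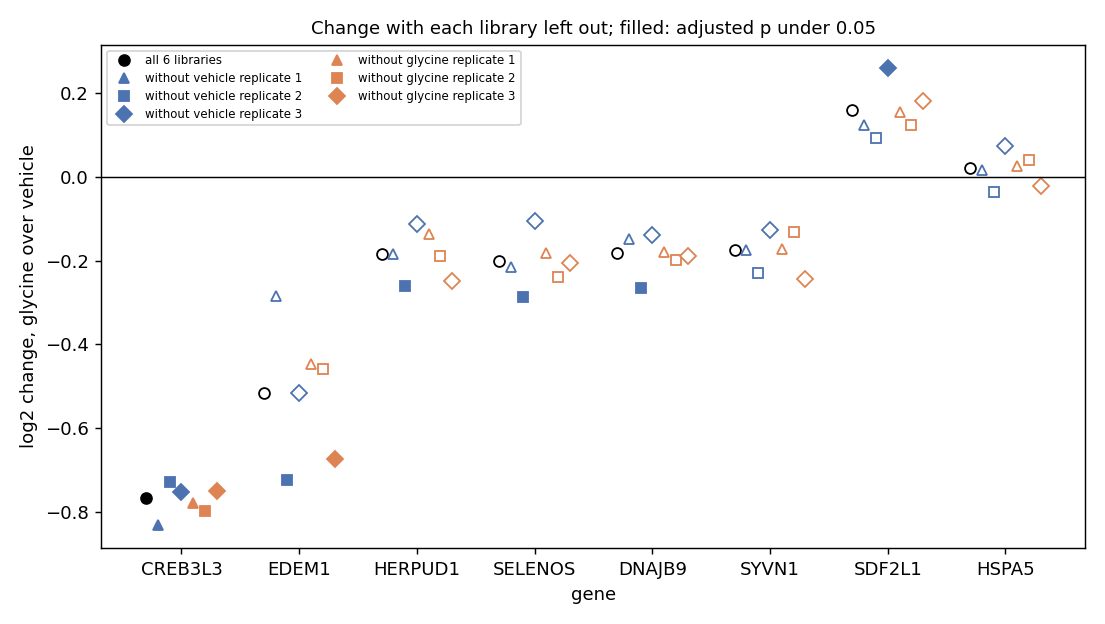
Log2 change with glycine of 8 ER genes with all 6 libraries and with each library left out in turn; a filled symbol marks an adjusted p under 0.05. CREB3L3 is filled in every fit, and DNAJB9, SELENOS and HERPUD1 are filled only without vehicle replicate 2.

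The translocon, the channel through which new chains enter the ER, did not pass the test. SEC61A1, its core, was at 583, 649 and 603 CPM in vehicle and 628, 590 and 602 CPM in glycine libraries (log2 change -0.013), and SEC61B had a log2 change of -0.09 (edgeR adjusted p = 0.473). Of 17 other genes of the translocon, signal recognition and signal peptide removal, 0 were called in either direction.

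The arm of the response that runs through PERK, ATF4 and CHOP was taken from a separate list of 14 genes, of which 13 were tested, 1 was higher and 0 were lower. Counts of called genes in this and the other related lists stand against 6.71% higher and 6.54% lower over all tested genes, and with so few genes nothing is read from a list's share. The gene that rose was PPP1R15A (GADD34), which brings a phosphatase to the initiation factor eIF2α and so restores translation. Its level was 22.3, 22.8 and 25.2 CPM in vehicle and 31.5, 34.1 and 34.3 CPM in glycine libraries, without overlap, and its log2 change was 0.51 ± 0.0734 (edgeR adjusted p = 0.000527). The other stress factors named here were picked for their roles after their values were seen. They had log2 changes of 0.05 for ATF4, -0.29 for DDIT3 (CHOP), 0.16 for ATF3 and -0.26 for EIF2AK3 (PERK), with edgeR adjusted p of 0.698, 0.323, 0.416 and 0.112. Among the rest of the list, NUPR1, ASNS and EIF2S1 were at 0.29, 0.23 and 0.19 (edgeR adjusted p = 0.142, 0.101 and 0.0889). Of the 13 genes, 7 had a log2 change above 0 and 6 below, with a median of 0.05. The unadjusted p was under 0.05 for 5 of the 13, against 27.3% of all tested genes. Without vehicle replicate 2, 3 were called higher and 1 lower, as with no filter on low counts, and without vehicle replicate 3, 2 were higher and 0 lower.

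In the list of transport from the ER to the Golgi, 3 of 18 tested genes were lower and 0 higher (6.54% and 6.71% of all tested genes), with a median log2 change of -0.14. SEC24D, which selects cargo for transport vesicles, was at 88.0, 77.7 and 81.3 CPM in vehicle and 64.2, 53.5 and 64.4 CPM in glycine libraries, a log2 change of -0.44 (edgeR adjusted p = 0.00294). KDELR3, a receptor that returns escaped chaperones to the ER, went from 51.0 ± 2.74 to 40.9 ± 1.36 CPM (log2 change -0.32, edgeR adjusted p = 0.00700). SEC13, of the outer vesicle coat, went from 299 ± 20.6 to 248 ± 8.84 CPM (log2 change -0.27, edgeR adjusted p = 0.0213), and lost its call without vehicle replicate 3, glycine replicate 1 or glycine replicate 3 (adjusted p = 0.0620, 0.0609 and 0.0837). With vehicle replicate 2 and glycine replicate 1 both left out, 1 of the 18 was lower. In that fit 461 of all tested genes were lower, against 1013 with all 6 libraries. The groups did not overlap for 10 of these 18 genes, against 31.6% of all tested genes.

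Of 18 other disulfide isomerases and redox enzymes of the ER, 2 were lower and 0 higher. TXNDC11, a thioredoxin-domain protein, fell from a mean of 114 ± 1.49 CPM to one of 94.4 ± 1.95 CPM (log2 change -0.27, edgeR adjusted p = 0.00728). PDIA5, a further isomerase, was at 81.2, 61.0 and 83.7 against 56.5, 59.5 and 63.1 CPM (log2 change -0.33, edgeR adjusted p = 0.0441). The PDIA5 call was lost in each of the 5 fits that left out a library other than vehicle replicate 2. The number lower among these 18 genes also fell to 1 under total count scaling and with limma-voom. It was 1 as well with vehicle replicate 2 and glycine replicate 1 both left out. Of 16 cochaperones and prolyl isomerases, 1 was higher and 2 were lower. SERPINH1 (HSP47), a chaperone of procollagen, rose from 165 ± 21.5 to 214 ± 10.8 CPM (log2 change 0.37, edgeR adjusted p = 0.0129), although it lost its call without glycine replicate 3 (0.33, adjusted p = 0.0621). The prolyl isomerases FKBP14 and PPIC had log2 changes of -0.38 and -0.31 (edgeR adjusted p = 0.00469 and 0.0128), and PPIC lost its call without glycine replicate 3 (adjusted p = 0.0565). With vehicle replicate 2 and glycine replicate 1 both left out, 1 of the 16 was higher and 1 lower.

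The remaining lists held few calls. Of 17 genes that add and trim N-glycans or serve the calnexin cycle, 1 was lower, the oligosaccharyltransferase subunit TUSC3. It was low throughout, at 2.89 ± 0.378 CPM in vehicle and 1.69 ± 0.205 CPM in glycine libraries (log2 change -0.75, edgeR adjusted p = 0.00821). With vehicle replicate 2 and glycine replicate 1 both left out, 0 of the 17 were lower. Of 20 other degradation genes 0 were called, with a median log2 change of -0.06. Of these, 16 had a log2 change below 0, against 49.2% of all tested genes. The lean was not particular to them, with 12 of 17 below 0 in the other translocon list and 14 of 18 in the transport list. In the PERK list 6 of 13 were below 0, and among the other stress factors 4 of 10. Without vehicle replicate 2, 2 of these 20 were lower. Of 10 tested genes among the other ER stress factors and the proteases that release them 0 were called, with a median log2 change of 0.03.

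The libraries held between 31795489 and 58815986 counts, glycine replicate 2 being the deepest. Mitochondrial transcripts took between 1.94% and 2.82% of them, the most in vehicle replicate 2. That library also had the lowest TMM factor, 0.979, against 0.996 to 1.015 in the others. Hepatocyte markers (ALB, AFP, APOA1, APOB, TTR, SERPINA1, FGB and TF) were abundant in every library, and 2 of the 8, APOA1 and TTR, were lower with glycine. Their summed level was 29080 to 33130 CPM with vehicle and 24940 to 28670 CPM with glycine, so it moved in the same direction as CREB3L3, and its part in that change was not tested. The markers did not move alike. Of those not called, APOB had a log2 change of 0.0001, SERPINA1 of -0.098, FGB of -0.16, TF of -0.27 and AFP of -0.33. ALB read 9038, 5366 and 8660 CPM with vehicle and 4682, 5344 and 6405 CPM with glycine (log2 change -0.49, edgeR adjusted p = 0.0764), and vehicle replicate 2 was again the low vehicle library, as it was for PDIA4 and EDEM1. Markers of leukocytes summed to 4.76 to 5.87 CPM with vehicle and 8.13 to 8.74 CPM with glycine, mostly CD14 and CD68, both of which rose, while CD3E was at 0 in every library and PTPRC did not exceed 0.0860 CPM. Markers of fibroblasts summed to 27.1 to 31.1 and 21.5 to 22.1 CPM, mostly PDGFRB, which fell while COL1A1 rose, and DCN did not exceed 0.0313 CPM. Endothelial markers summed to 5.45 to 5.76 and 4.60 to 5.26 CPM, mostly PECAM1, which was not called (log2 change -0.16, edgeR adjusted p = 0.397). VWF was called lower at a low level, 0.430 to 0.695 CPM with vehicle and 0.239 to 0.284 CPM with glycine. CDH5, also low, had a log2 change of 0.15 (edgeR adjusted p = 0.753), and KDR did not exceed 0.0237 CPM.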

How the data were processed

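RNA-seq counts were analysed for HepG2 cells, with 3 vehicle and 3 glycine libraries grouped by their titles. The count column of each file is headed by a number that is not its library's name, so each file was tied to its library by the deposit's own record of files, and the headers could not check this. The files deposited by the authors hold raw counts of reads per gene, not normalized. The submitters' processing notes name Trimmomatic 0.36, STAR 2.5.2b, featureCounts, Subread 1.5.2 and GRCh38, but the strand setting and the annotation are not given in the sources used here, so reads of overlapping genes are less certain. Of 57500 genes, 54773 had the same ends in GENCODE release 29, and 56410 had a symbol. Exon lengths are those in the files and cover all annotated isoforms.

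Counts were tested with the edgeR 4.0.16 quasi-likelihood test in R 4.3.3 (two-sided), after the default expression filter (minimum count 10, minimum total 15) and TMM scaling, with group as the model and Benjamini-Hochberg adjustment over 15492 genes at 0.05. Standard errors are the change over the square root of F. A single count was worth 0.0171 to 0.0313 CPM, and limits cover counting error only. No library was a duplicate, since replicates differed by a chi-square of 6.97 to 26.8 per degree of freedom.

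The 31 genes and the related lists were chosen with earlier results of these data known, and lists are described by counts and medians only. All 31 genes are named, and up to 4 called genes of each related list. Promoter motifs were searched on both strands. Protein ends were not analysed here. Alternatives were other scalings and filters, DESeq2 1.42.0, limma-voom (limma 3.58.1), a replicate block and leaving out libraries, and the scripts were tested on simulated data. The study describes the replicates as biological, and defines such a replicate as an experiment done on a separate day.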

Additional observations from a re-analysis of the deposited data

How the results depend on the processing

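The count of the 30 genes called higher was 0 and of those called lower 1. The count lower was 3 with no filter on low counts (EDEM1 and CREB3L2 besides CREB3L3), 2 with the DESeq2 test (CREB3L2, adjusted p = 0.0373), and 2 with vehicle replicate 2 and glycine replicate 1 both left out (EDEM1), which was chosen after seeing the data. With 1 library left out at a time, it ran from 1 to 5, the highest without vehicle replicate 2, and the count higher from 0 to 1. Without glycine replicate 3 EDEM1 was also called (-0.67, adjusted p = 0.0435). The cause was not tested.

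The replicate numbers were not taken as pairs, since libraries of the same number did not deviate together (correlations -0.058, -0.027 and -0.003). Libraries of different number did so more, with 0.214 for vehicle 1 with glycine 3, 0.214 for vehicle 2 with glycine 1 and 0.18 for vehicle 3 with glycine 2. No label gives such a pairing. The study states that, in its cell-based assays, control and treated samples were run together on each day. Vehicle and glycine libraries may therefore share days, while the main test takes them as unpaired. The crossed pairing was not fitted, so whether libraries share a day under other numbers was not tested. With the replicate number as a block, 0 of the 30 genes were higher and 2 lower (EDEM1, adjusted p = 0.0273, with CREB3L3). No sample correlated best with its own number.

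Of the log2 changes of 40 named genes under 15 alternatives, 532 values kept their direction and their side of the threshold, 11 passed it newly, 17 lost it and 40 changed sign, for 13 genes that were all uncalled and near 0. ERO1A was at -0.0021 with DESeq2 size factors, -0.0017 with upper-quartile scaling and -0.0020 with DESeq2, and SEL1L at -0.0051, -0.0041 and -0.0049. PDIA3 (0.0063) and SEC61A1 (0.0025) rose above 0 under total count scaling. With vehicle replicate 2 and glycine replicate 1 both left out, HSPA5 was at -0.020, CALR at -0.0023, ERO1A at -0.056, SEL1L at -0.034 and SEC61A1 at 0.0074. With 1 library left out at a time, the changes ran from -0.036 to 0.074 for HSPA5, -0.047 to 0.097 for CALR, -0.097 to 0.065 for PDIA3, -0.29 to 0.051 for PDIA4, -0.098 to 0.025 for PDIA6, -0.097 to 0.065 for ERO1A, -0.0044 to 0.18 for MANF, -0.069 to 0.079 for SEL1L, -0.0027 to 0.075 for DERL1, -0.012 to 0.13 for DERL2, -0.018 to 0.076 for XBP1, -0.013 to 0.050 for ATF6 and -0.057 to 0.033 for SEC61A1. Under no scaling did the median of all tested genes move by more than 0.1.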
